A study of Mus musculus with 8 samples.

Results

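Branched-chain amino acid breakdown was followed here through 10 genes of its mitochondrial enzymes in 3T3-L1 adipocytes, a mouse line of pre-adipocytes that forms fat cells in culture. The genes were taken by symbol for their place in the pathway, with earlier results of these data known. They are Bcat2, Bckdha, Bckdhb, Dbt, Ivd, Mccc1, Mccc2, Auh, Hibch and Acadsb. All 10 were found among the 43629 genes of the count file and all 10 passed the filter on low counts in every comparison. Messenger RNA was measured in 4 groups with 2 libraries each, crossing inhibition of the PI3K subunit p110α with an excess of a saturated fatty acid. All cells had been induced to differentiate with insulin, dexamethasone, isobutylmethylxanthine and rosiglitazone. From day 8 they were left untreated, or received A66 at 2 µM, palmitate at 0.5 mM bound to albumin at a molar ratio of 3, or palmitate plus A66 at the same doses, for 24 h. A66 is a p110α-selective inhibitor and palmitate is a saturated fatty acid. The study's methods give another A66 dose and a DMSO vehicle for the controls, so whether the libraries named untreated held vehicle is not settled. No albumin was recorded for the groups without palmitate, so palmitate and its albumin carrier cannot be told apart. Every direction below follows the sample labels and the names of the count columns. Read against those names, the fold change that was deposited for A66 is signed untreated over A66, opposite to the sign used here, and no gene measured here checks the names. If the names of control and treated columns were exchanged, every A66 difference would turn, the comparisons of palmitate with untreated cells and of palmitate plus A66 with A66 would change places, and what is said of the combined treatment would belong to palmitate alone. The methods speak of biological repeats of a single cell line, so the tests measure the spread between cultures of that line.

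Leucine, isoleucine and valine share their first steps of breakdown. Bcat2, the mitochondrial transaminase, moves their amino group to 2-oxoglutarate, and the branched-chain ketoacid dehydrogenase (BCKDH) complex then removes a carboxyl group and commits the carbon skeleton to oxidation. After that the paths separate. Leucine carbon runs through Ivd, the carboxylase built from Mccc1 and Mccc2, and Auh, whereas valine carbon passes Hibch and isoleucine carbon passes Acadsb. Differentiating fat cells are known to raise this pathway and to use its carbon for fatty acid synthesis.

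Library totals ran from 42247091 to 57529803 counts, at which 3 counts correspond to 0.0521 to 0.071 CPM (counts scaled to a common library total, with the TMM correction for library composition). That floor covers counting error only. The lowest count of any of the 10 genes in a library was 1288 (Auh) and the highest 16179 (Bcat2), so counting error alone was 0.93% to 2.79% at each gene's lowest count. The 12 adipocyte markers examined, among them Adipoq, Fabp4 and Plin1, were detected in every library. Of the 10 pre-adipocyte and fibroblast markers Dlk1 was at 0 and Cd34 at 9 to 21 counts per library, whereas Col1a2 and Col3a1 lay between 2952 and 3536 CPM and Vim between 879.6 and 1099 CPM. Ucp1 of brown fat, Adgre1 of macrophages and Kdr of endothelium were at 0 in all 8 libraries, but other markers of these cells had counts, Cidea 5 to 24, Cd68 109 to 286, Lyz2 104 to 203 and Pecam1 20 to 45 per library. Because these are bulk cultures, fewer cells of a type and less RNA per cell cannot be told apart.

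Levels between genes were compared per kilobase of the principal transcript, in untreated cells. Bcat2 stood highest at 167 ± 2.31 CPM per kb (SD, n = 2), followed by Bckdha at 93.1 ± 1.75, Hibch at 82.3 ± 3.03 and Ivd at 75.5 ± 1.75. Mccc1 followed at 62.1 ± 0.505, Acadsb at 44.1 ± 1.08 and Dbt at 37.0 ± 0.306. Bckdhb at 31.6 ± 1.35, Mccc2 at 28.3 ± 1.31 and Auh at 22.7 ± 0.387 CPM per kb were lowest. No neighbours in this order overlapped between their untreated libraries, and the order by mean was the same in all 4 groups. It depends on the length used, since per kilobase of all annotated exons Bckdha came first at 93.1, Bcat2 second at 76.0 and Auh last at 3.13 CPM per kb in untreated cells. The subunits of one enzyme were therefore not at one level, with Bckdha above both Dbt and Bckdhb by either length. Mccc1 was above Mccc2 per kilobase of principal transcript and below it per kilobase of all exons, at 13.9 against 21.4 CPM per kb.

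**Figure D1:**
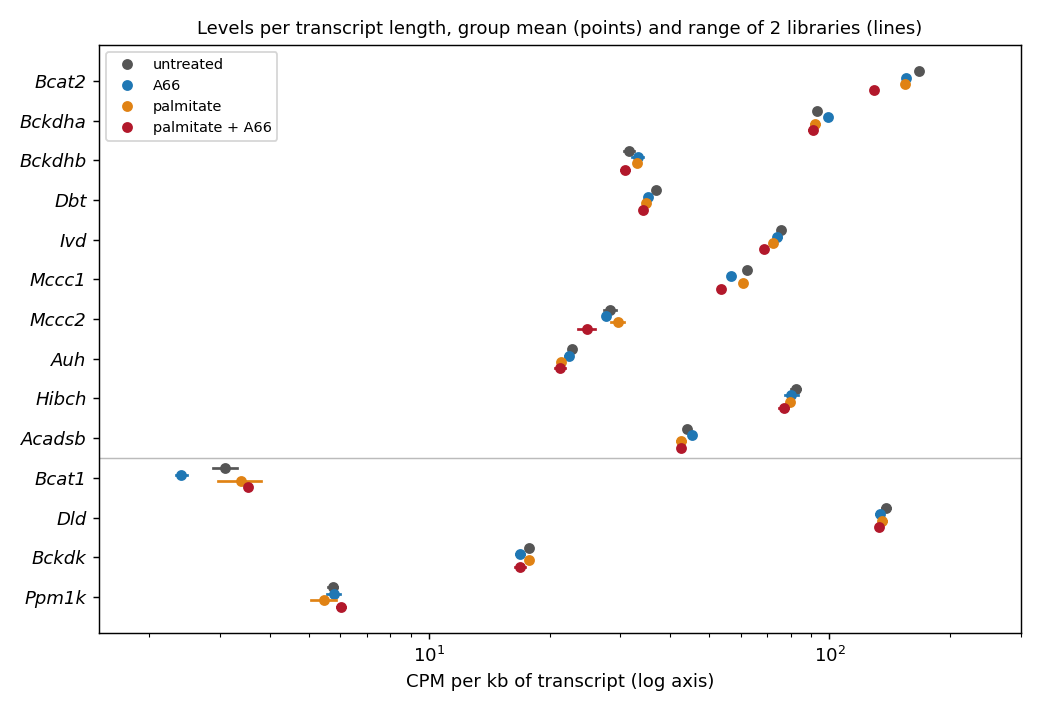
Levels in CPM per kb of principal transcript on a log axis, as group means (points) with the range of the 2 libraries (lines), for the 10 genes and, below the rule, Bcat1, Dld, Bckdk and Ppm1k. Bcat2 was highest in each group and Auh lowest of the 10, and Bcat1 lay at 3.10 CPM per kb in untreated cells.

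The clearest change was in cells that received palmitate and A66 together. Against palmitate alone, Bcat2 and both subunits of the leucine carboxylase, Mccc1 and Mccc2, fell, while none of the 10 genes rose. Against A66 alone, Bcat2 fell by a like amount. Neither A66 nor palmitate by itself moved any of the 10 past the threshold, an adjusted p of 0.05 by the quasi-likelihood test of edgeR, adjusted by Benjamini and Hochberg's method over all genes tested. Over all those genes, 1.84% were called lower by both agents against palmitate and 1.27% lower against A66, while 1.84% were called in either direction for A66 alone and 1.17% for palmitate alone.

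Bcat2 (ENSMUSG00000030826, plus strand of chromosome 7 from 45570153 to 45589711 in GRCm38) makes the transaminase that opens the pathway. In untreated cells its libraries read 293 and 299 CPM, with A66 alone 273 and 277, with palmitate alone 270 and 278, and with the combination 230 and 228. Both libraries of the combined treatment lay below all other libraries, and the libraries of each single treatment lay below both untreated ones. The group means with A66 and with palmitate were 92.8% and 92.5% of the untreated mean, and with both agents 77.3%. Against palmitate it fell by 16.4%, a log2 fold change of -0.26 (SE 0.04, 95% interval -0.34 to -0.18), with an adjusted p of 0.000568 in edgeR. Against A66 it fell by 16.7%, a log2 fold change of -0.26 (SE 0.04, 95% interval -0.35 to -0.18), with an adjusted p of 0.000246. Each single treatment gave a smaller value that did not pass, -0.10 (SE 0.04, adjusted p = 0.225) for A66 and -0.11 (SE 0.04, adjusted p = 0.203) for palmitate against untreated cells in the edgeR fits. An antisense gene on the opposite strand shares 622 bases with the exons of Bcat2, 15.95% of their length. The library kit keeps the strand, but how the counting used it is not given in the sources used here.

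Mccc1 (ENSMUSG00000027709, minus strand of chromosome 3 from 35959312 to 36000678) encodes the biotin-bearing subunit of 3-methylcrotonyl-CoA carboxylase, the leucine enzyme after Ivd. Its libraries read 153 and 152 CPM untreated, 140 and 139 with A66, 150 and 149 with palmitate, 130 and 133 with both. Here the palmitate libraries stayed close below the untreated ones, the A66 libraries lay clearly lower, and the libraries with both agents were lowest. With palmitate present the A66 difference was -0.19 on the log2 scale (SE 0.04, 95% interval -0.27 to -0.10), with an adjusted p of 0.00978 in edgeR. Without palmitate it was -0.12 (SE 0.04, 95% interval -0.21 to -0.04) and did not pass after adjustment (unadjusted p = 0.00589, adjusted p = 0.151 in edgeR). Genes on the opposite strand cover only small shares of the Mccc1 exons, at most 2.93% each.

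Mccc2 (ENSMUSG00000021646, minus strand of chromosome 13 from 99948530 to 100015639) encodes the partner subunit with the carboxyl transferase activity. Its libraries were less alike than those of Mccc1, with 62.0 and 58.1 CPM untreated, 58.8 and 58.6 with A66, 60.4 and 65.2 with palmitate, 50.1 and 55.0 with both. The libraries with both agents lay below all others, and the untreated, A66 and palmitate libraries overlapped, except that A66 lay below palmitate. Against palmitate the log2 fold change was -0.26 (SE 0.05, 95% interval -0.37 to -0.14), with an adjusted p of 0.00883 in edgeR. Both carboxylase subunits lost their calls when either of 2 libraries was left out, in fits where the remaining library is assumed to vary like the other groups. Without palmitate replicate 2 the log2 fold changes were -0.19 for Mccc1 and -0.20 for Mccc2 (adjusted p = 0.0602 and 0.161 in edgeR). Without palmitate plus A66 replicate 1 they were -0.17 and -0.19 (adjusted p = 0.138 and 0.186). Bcat2 passed in all 8 fits that left out a library.

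**Figure D2:**
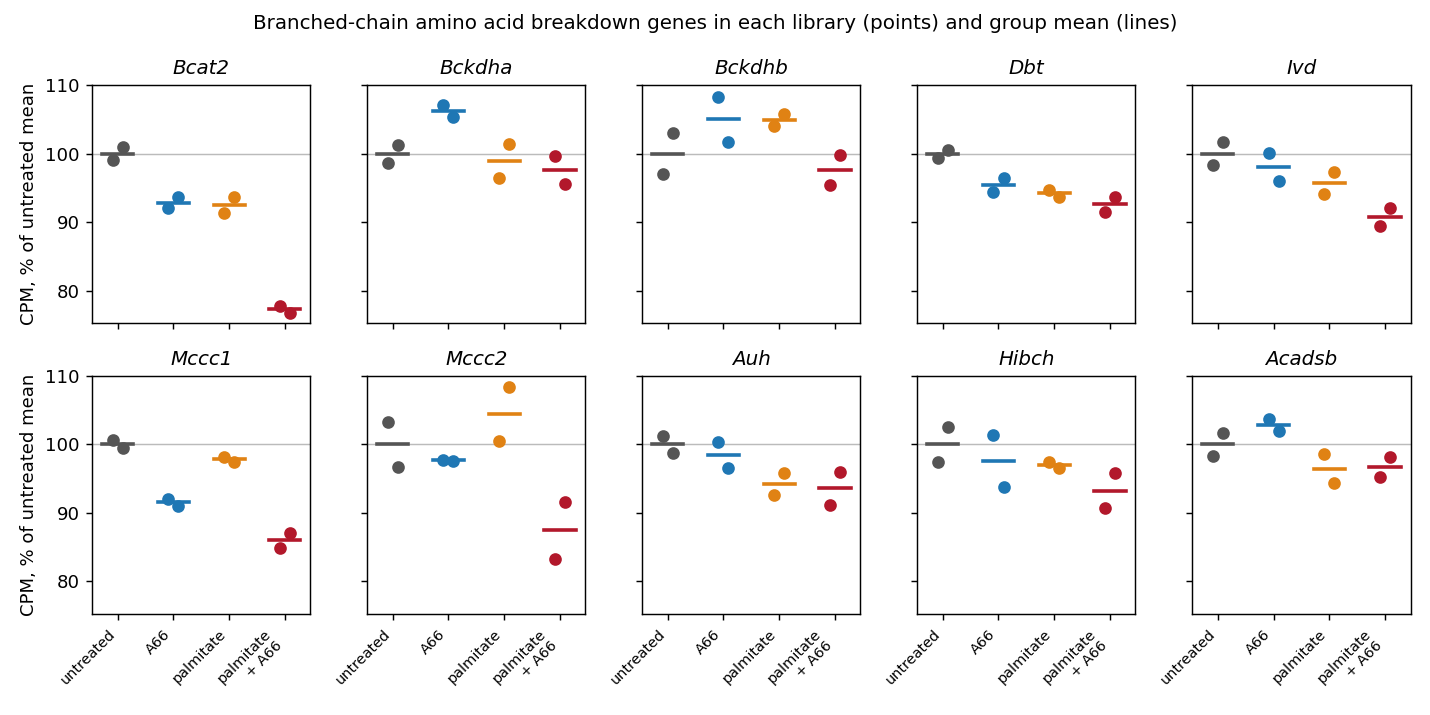
CPM of each of the 10 genes in each library (points) with the group mean (lines), as percent of the mean of the untreated libraries, on an axis that does not start at 0. Bcat2 with palmitate plus A66 sits at 77.3%, Mccc1 at 86.0% and Mccc2 at 87.5% of the untreated mean, and the other 7 genes lie between 90.8% and 97.6% in that group.

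The 250 bases before the annotated start of these 3 genes are shown because the genes fell together against palmitate. They are from RefSeq on GRCm38.p6, which held such an entry for 9 of the 10 genes, all but Dbt. Each is read 5′ to 3′ on the gene's own strand, from chr7:45569903-45570152 (plus) for Bcat2, chr3:36000679-36000928 (minus) for Mccc1 and chr13:100015640-100015889 (minus) for Mccc2. Capitals mark matches on either strand to the GC box (GGGCGG) or the CCAAT box (CCAAT).
Bcat2: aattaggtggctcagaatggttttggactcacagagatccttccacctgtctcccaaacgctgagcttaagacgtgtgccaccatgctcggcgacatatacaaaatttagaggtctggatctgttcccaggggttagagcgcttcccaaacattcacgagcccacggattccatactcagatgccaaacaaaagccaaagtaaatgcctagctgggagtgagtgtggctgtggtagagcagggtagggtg
Mccc1: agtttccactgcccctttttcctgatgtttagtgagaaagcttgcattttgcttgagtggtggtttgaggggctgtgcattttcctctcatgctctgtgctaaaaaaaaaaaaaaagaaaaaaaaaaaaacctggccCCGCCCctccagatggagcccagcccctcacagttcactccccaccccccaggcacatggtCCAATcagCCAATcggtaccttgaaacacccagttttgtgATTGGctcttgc
Mccc2: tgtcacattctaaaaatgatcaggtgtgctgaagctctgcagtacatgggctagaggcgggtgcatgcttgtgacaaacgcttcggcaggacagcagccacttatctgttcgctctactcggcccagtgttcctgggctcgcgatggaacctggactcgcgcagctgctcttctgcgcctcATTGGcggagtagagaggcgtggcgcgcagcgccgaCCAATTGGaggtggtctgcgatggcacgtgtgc

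The windows of these 3 genes had little in common in these letters. That of Bcat2 held neither motif, that of Mccc1 held 1 GC box and 3 CCAAT matches, and that of Mccc2 held 3 CCAAT matches, of which 2 overlap as a palindrome. Over the 9 genes with an entry, 5 windows held a GC box and 4 a CCAAT box, against 32.7% and 33.8% of all 32851 RefSeq windows of this length. Exact letters of 5 further motifs, searched on both strands, were in none of the 9 windows. These were the forkhead (FOXO) motif TGTTTAC, the estrogen-related receptor motif TCAAGGTCA, the PPAR element, the NRF1 motif and the cyclic AMP element TGACGTCA. They occur in 3.17%, 0.387%, 0.0335%, 3.74% and 1.55% of all windows. A match is a run of letters and no more, and its absence says only that these letters are not in this window.

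The BCKDH complex itself showed no call in any comparison by edgeR or DESeq2, although an alternative fit given at the end called Bckdha lower against A66. Bckdha (ENSMUSG00000060376, minus strand of chromosome 7 from 25629946 to 25658981) and Bckdhb (ENSMUSG00000032263, plus strand of chromosome 9 from 83925145 to 84124240) encode the subunits of its decarboxylase. Bckdha read 174 and 179 CPM untreated, 189 and 186 with A66, 170 and 179 with palmitate, 176 and 169 with both, so that both A66 libraries lay above all others. That difference was 0.09 on the log2 scale (SE 0.04) with an unadjusted p of 0.0368 and an adjusted p of 0.344 in edgeR. Bckdha shares 61.66% of its exon bases with B3gnt8 on the opposite strand, and B3gnt8 had 0 to 6 counts per library. Bckdhb ran from 44.3 to 50.4 CPM over the 8 libraries, with both libraries of the combined treatment below both palmitate libraries. Dbt (ENSMUSG00000000340, plus strand of chromosome 3 from 116513070 to 116549981), the transacylase core, was highest in the untreated libraries at 121 and 123 CPM. With A66 it read 115 and 118 CPM, under palmitate 116 and 114, and under both 112 and 114, and the untreated libraries overlapped none of these groups. Its difference under palmitate, -0.09 (SE 0.04), had an unadjusted p of 0.0462 and an adjusted p of 0.403 in edgeR.

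Against palmitate, the other genes after the complex had smaller estimates and none was called. Ivd (ENSMUSG00000027332, plus strand of chromosome 2 from 118861954 to 118882909), isovaleryl-CoA dehydrogenase of the leucine branch, read 272 and 281 CPM untreated, 277 and 266 with A66, 260 and 269 with palmitate, 248 and 255 with both. Its libraries with both agents were below all others, and the difference from A66 was -0.11 (SE 0.04, unadjusted p = 0.0131, adjusted p = 0.179 in edgeR). Auh (ENSMUSG00000021460, minus strand of chromosome 13 from 52835119 to 52929681), the hydratase that follows the carboxylase, ran from 27.3 to 30.3 CPM. Hibch (ENSMUSG00000041426, plus strand of chromosome 1 from 52844929 to 52920986), the valine hydrolase, ran from 137 to 155 CPM. Acadsb (ENSMUSG00000030861, plus strand of chromosome 7 from 131410601 to 131448944), the dehydrogenase of the isoleucine branch, ran from 253 to 278 CPM. Against palmitate the 95% intervals of the A66 difference were -0.14 to 0.12 for Auh, -0.15 to 0.04 for Hibch and -0.08 to 0.09 for Acadsb on the log2 scale, so changes as large as that of Bcat2 lie outside all 3 intervals.

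The comparison of A66 with untreated cells asks what p110α inhibition does to these genes by itself. No member of the 10 was called by edgeR, where 1.84% of the 14158 genes tested were called, and DESeq2 also called 0. At an unadjusted p under 0.05, 1 was higher (Bckdha) and 2 were lower (Bcat2 and Mccc1), where 12.8% of all genes tested had such a p in either direction. Their median log2 fold change was -0.03, against -0.00106 over all genes tested. The median of the 10 was 0.00853 without A66 replicate 2, -0.05 without A66 replicate 1 and -0.02 without untreated replicate 2. Libraries of the groups did not overlap for 5 of the 10, 2 higher and 3 lower, where 42.7% of all genes tested did not overlap. Of the 12 adipocyte markers edgeR and DESeq2 called 0, with 7 estimates above 0 and 5 below. Of the 9 pre-adipocyte and fibroblast markers tested, edgeR called 2 higher, where it called 1.07% of all genes higher. They were Vim (0.19, SE 0.04, adjusted p = 0.0082) and Acta2 (0.23, SE 0.06, adjusted p = 0.0262). DESeq2 called 1 of the 9 higher.

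The comparison of palmitate with untreated cells asks the same of palmitate given with its albumin. edgeR and DESeq2 again called 0 of the 10, where edgeR called 1.17% of the 14587 genes tested. At an unadjusted p under 0.05, 2 were lower (Bcat2 and Dbt) and none higher, where 12% of all genes tested had such a p. The median was -0.05 against 0.000532 over all genes, with 5 genes lower and 1 higher without overlap, where 40.5% of all genes did not overlap. All 12 adipocyte markers had estimates below 0, with a median of -0.10. edgeR called 2 of them lower and DESeq2 1, where edgeR called 0.542% of all genes lower. Their sums were 19991 to 20055 CPM untreated and 17586 to 18800 CPM with palmitate. Of the 9 pre-adipocyte and fibroblast markers tested, edgeR called 1 higher and DESeq2 2. Their part in the values of the 10 genes was not tested.

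With palmitate present, the A66 comparison called 3 of the 10, all lower, where 1.84% of all genes tested were called lower. DESeq2 also called 3, where it called 1.91% of all genes lower. As given above, the calls of Mccc1 and Mccc2 depended on single libraries. The estimate was below 0 for 9 of the 10, Acadsb being the exception at 0.00379. The libraries of 7 genes were lower without overlap, where 22.4% of all genes were. The median of the 10 was -0.07, against -0.000794 over all genes. Over the 12 adipocyte markers 3 were called lower and 0 higher in the same comparison, and their summed level ran from 17016 to 18152 CPM with both agents and from 17586 to 18800 CPM with palmitate, so the sums overlapped. The 10 pre-adipocyte and fibroblast markers summed to 8106 to 8276 CPM with both agents and 8576 to 8964 CPM with palmitate. Of the 9 tested, edgeR called 1 higher and 1 lower, and DESeq2 2 higher and 3 lower. The part of either list in the falls of Bcat2, Mccc1 and Mccc2 was not tested.

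Palmitate plus A66 was also compared with A66 alone, which shares the combined libraries with the comparison before it. edgeR and DESeq2 each called 1 of the 10, Bcat2, where edgeR called 1.27% of all genes lower. The estimates of all 10 were below 0, with a median of -0.10 against 0.000439 over all genes, and 6 had an unadjusted p under 0.05 (Bcat2, Bckdha, Ivd, Mccc1, Mccc2 and Acadsb), where 14.6% of all genes had such a p in either direction. The libraries of 9 genes were lower without overlap, all but Hibch, where 23.4% of all genes were lower without overlap. In this comparison 9 of the 12 adipocyte markers were called lower and 0 higher, with a median log2 fold change of -0.25 (DESeq2 called 6 lower), and their summed level fell from between 19548 and 20367 CPM with A66 to between 17016 and 18152 CPM with both. Of the 4 macrophage markers, Adgre1 was at 0 and Ptprc had at most 1 count in a library. Cd68, which is also a lysosomal protein of other cells, was called higher by edgeR and DESeq2, from 2.65 and 3.28 CPM with A66 to 5.40 and 5.74 CPM with both (log2 fold change 0.91, SE 0.16, adjusted p = 0.0014 in edgeR and 0.0678 without A66 replicate 1). Lyz2 was at 3.03 and 3.17 CPM with A66 and 2.14 and 2.83 CPM with both, and was not called. The part of these markers in the lower level of Bcat2 was not tested.

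Whether A66 acted differently with and without palmitate was tested as an interaction in the fit on all 8 libraries. It called 0 of the 10 genes and 1 of the 14587 genes tested, 0.00686%, and DESeq2 also called 0 of the 10. At an unadjusted p under 0.05 there were 3, all with a more negative A66 difference when palmitate was present, where 7.92% of all genes had such a p. They were Mccc2 at -0.22 (SE 0.08, adjusted p = 0.472 in edgeR), Bcat2 at -0.15 (SE 0.06, adjusted p = 0.495) and Bckdhb at -0.17 (SE 0.08, adjusted p = 0.588). The calls made with palmitate and not without it are thus not shown to differ between these settings. For Mccc1 the interaction was -0.06 with a 95% interval from -0.18 to 0.06.

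**Figure D3:**
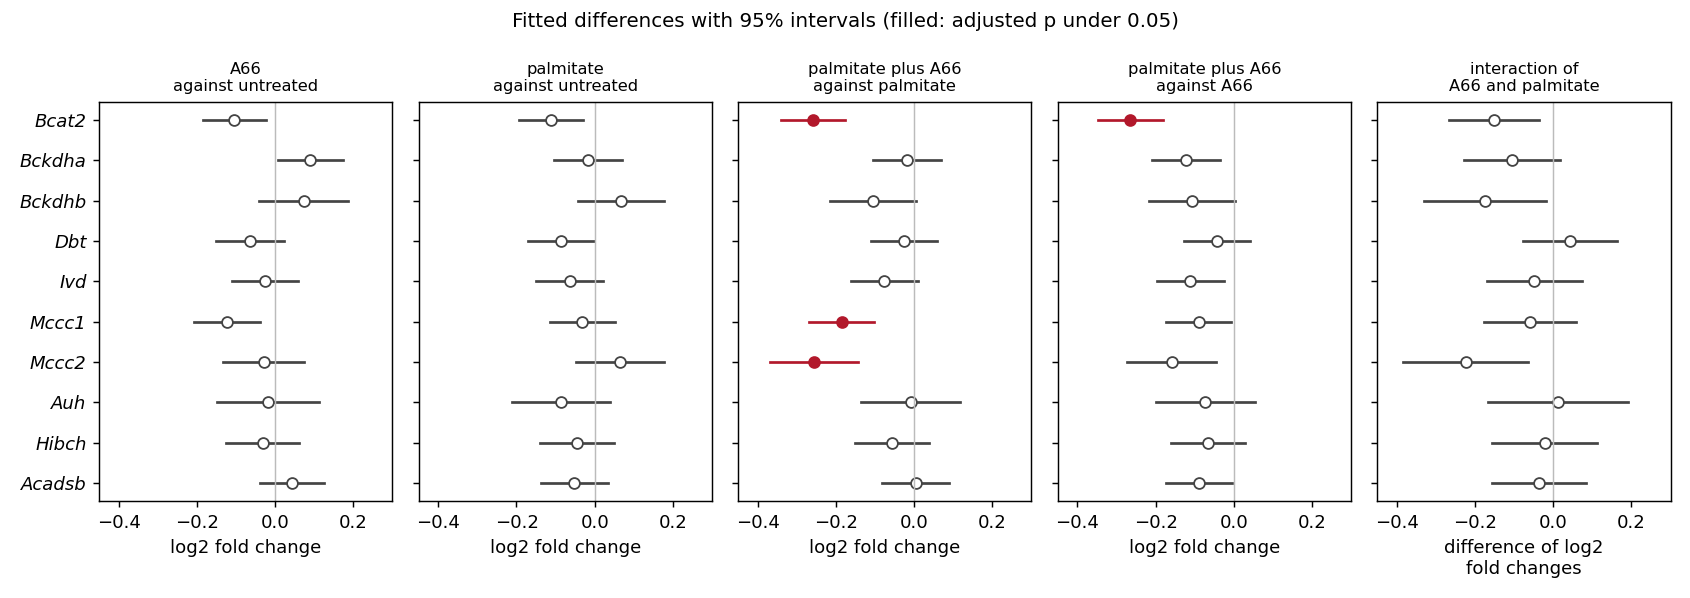
Log2 fold changes from edgeR with 95% intervals for the 10 genes in the 4 comparisons and, at the right, the interaction (difference of log2 fold changes), with filled points for an adjusted p under 0.05. Only Bcat2, Mccc1 and Mccc2 against palmitate and Bcat2 against A66 are filled, and all 10 estimates against A66 lie below 0.

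Around the 10 genes, 30 others of branched-chain amino acid use were examined, all of which passed the filter. The partners of the complex showed no call in any of the comparisons. Dld, the dihydrolipoamide dehydrogenase shared with other complexes, stood at 138.6 CPM per kb in untreated cells, Bckdk, the kinase that switches the complex off, at 17.8, and Ppm1k, the phosphatase that switches it on, at 5.75. Bcat1, the cytosolic transaminase, stood at 3.10 CPM per kb against 167 for Bcat2. Against A66 alone, Bcat1 rose by 0.55 on the log2 scale (SE 0.12, adjusted p = 0.0127 in edgeR) while Bcat2 fell. The Bcat1 libraries read 5.95 and 6.35 CPM with A66 and 9.13 and 8.87 CPM with both, without overlap, and 7.39 and 8.45 CPM in untreated cells. With palmitate they read 9.70 and 7.61 CPM, on either side of those with both. A66 alone against untreated cells gave -0.37 (SE 0.12, adjusted p = 0.145 in edgeR), so the A66 libraries were the low ones. The adjusted p for Bcat1 became 0.197 without A66 replicate 1 and 0.109 without palmitate plus A66 replicate 1.

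In the comparison of both agents with palmitate, 3 of the 30 were called lower and 0 higher, where 1.84% of all genes were called lower and 0.973% higher. The estimate was below 0 for 23 of the 30, with a median of -0.06, where 49.7% of all genes lay above 0 and their median was -0.000794. Hsd17b10 and Acat1, which carry out successive last steps of isoleucine breakdown, fell by 0.21 (SE 0.05, adjusted p = 0.00908) and 0.18 (SE 0.04, adjusted p = 0.0165) on the log2 scale in edgeR. Hsd17b10 read 88.2 and 89.8 CPM with palmitate and 76.7 and 76.9 CPM with both, and Acat1 222 and 223 CPM against 193 and 200 CPM, both without overlap. Slc7a5, a plasma membrane carrier of large neutral amino acids, fell by 0.18 (SE 0.04, adjusted p = 0.0189). Against A66 alone, Hsd17b10 (-0.22, SE 0.05, adjusted p = 0.00637 in edgeR) and Acat1 (-0.15, SE 0.04, adjusted p = 0.0462) were again lower. Bcat1, Mmab (0.27, SE 0.05, adjusted p = 0.000915), an enzyme of cobalamin activation, and Slc3a2 (0.16, SE 0.04, adjusted p = 0.0307), the heavy chain that pairs with Slc7a5, were higher. Those 2 lower and 3 higher calls compare with 1.27% and 1.46% of all genes. The call of Mmab held whichever library was left out. Against palmitate, Hsd17b10 and Acat1 lost their calls without palmitate replicate 2 or either library with both agents (adjusted p from 0.0674 to 0.0915 and from 0.0522 to 0.205), and Slc7a5 without palmitate replicate 1 or palmitate plus A66 replicate 2 (0.115 and 0.227). Against A66, Hsd17b10 lost its call without A66 replicate 1 or palmitate plus A66 replicate 1 (0.304 and 0.0829). Acat1 lost it when any one of the 4 libraries compared was left out (0.0812 to 0.482), and Slc3a2 without either A66 library or palmitate plus A66 replicate 1 (0.0597 to 0.445) and also with scaling by library size only (0.0629).

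With A66 by itself 2 of the 30 were called lower and 0 higher, where 0.77% and 1.07% of all genes were. They were Slc7a5 (-0.25, SE 0.04, adjusted p = 0.00167 in edgeR) and Mmab (-0.23, SE 0.05, adjusted p = 0.00772). Slc7a5 read 155 and 162 CPM in untreated cells and 130 and 136 CPM with A66. Mmab read 73.5 and 73.7 CPM untreated, 62.8 and 62.5 with A66, 78.0 and 82.4 with palmitate, 77.1 and 74.1 with both, so that its A66 libraries alone were below the untreated ones. Without A66 replicate 1 the adjusted p became 0.0704 for Slc7a5 and 0.0933 for Mmab, and without A66 replicate 2 it became 0.128 for Mmab. Palmitate by itself moved 0 of the 30 past the threshold in edgeR and in DESeq2, with 2 higher and 1 lower at an unadjusted p under 0.05, where 12% of all genes had such a p.

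Enzymes related by family were examined as well, in a list of 22 that shares Dld, Acad8, Pcca and Pccb with the 30. Among the 7 genes of 2-oxoacid dehydrogenase complexes, built like BCKDH, Pdhb, Pdhx and Ogdh were called lower by both agents against palmitate, by 0.17 (SE 0.04, adjusted p = 0.0202), 0.17 (SE 0.04, adjusted p = 0.0311) and 0.15 (SE 0.04, adjusted p = 0.0333) on the log2 scale in edgeR. All 7 estimates were below 0, where 1.84% of all genes were called lower and 49.7% lay above 0. Ogdh was also lower with A66 alone (-0.16, SE 0.04, adjusted p = 0.0367). With A66 alone all 7 estimates were likewise below 0, where 49.6% of all genes lay above 0. Their median was -0.08 with A66 alone and -0.09 with both agents against palmitate. None of the 9 acyl-CoA dehydrogenases, the family of Ivd and Acadsb, and none of the 6 genes of biotin carboxylases and their biotin ligase, the family of Mccc1, was called by edgeR in any comparison. At an unadjusted p under 0.05, 1 acyl-CoA dehydrogenase and 4 biotin carboxylase genes were lower and 1 biotin carboxylase gene higher with both agents against palmitate, where 14.4% of all genes had such a p and DESeq2 called 0 of either family. Against A66, 6 acyl-CoA dehydrogenases were lower at that unadjusted p, where 14.6% of all genes had such a p. DESeq2 called 3 of the 9 lower there, where it called 1.47% of all genes lower. The calls of Pdhb, Pdhx and Ogdh against palmitate were each lost when any one of the 4 libraries compared was left out (adjusted p from 0.0503 to 0.275 over the fits in which they were lost). Pdhx also lost its call without A66 replicate 1, and Ogdh without either A66 library and in a fit of the 4 libraries compared alone (0.0608). The call of Ogdh with A66 alone was lost without A66 replicate 1 or 2 (0.336 and 0.327).

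Of 7 transcription regulators known for this pathway or for fat cells, Klf15, a factor known to induce branched-chain amino acid breakdown in muscle, was called lower with both agents, where 1.84% of all genes were called lower against palmitate and 1.27% against A66. It read 55.3 and 57.1 CPM untreated, 55.6 and 57.2 with A66, 53.3 and 54.2 with palmitate, 47.1 and 46.9 with both. The libraries with both agents were below all others and those of the A66 and untreated groups overlapped. The log2 fold change was -0.19 (SE 0.05, adjusted p = 0.0278) against palmitate and -0.26 (SE 0.05, adjusted p = 0.00234) against A66 in edgeR, and the latter passed in all 8 fits that left out a library. The former was lost when any one of the 4 libraries compared was left out (adjusted p from 0.0625 to 0.187). Ppargc1b, a coactivator of mitochondrial genes, read 20.6 and 19.2 CPM untreated, 19.8 and 19.1 with A66, 16.9 and 17.1 with palmitate, 14.8 and 14.6 with both. The palmitate libraries thus lay below the untreated ones without overlap. Against A66 the log2 fold change with both was -0.41 (SE 0.08, adjusted p = 0.00314 in edgeR). Without A66 replicate 1 it was -0.38 and its call was lost. Pparg (293 to 323 CPM), Cebpa (56.7 to 74.9), Ppargc1a (55.4 to 63.8), Esrra (40.3 to 47.7) and Ppara (0.948 to 1.91) were not called in any comparison.

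**Figure D4:**
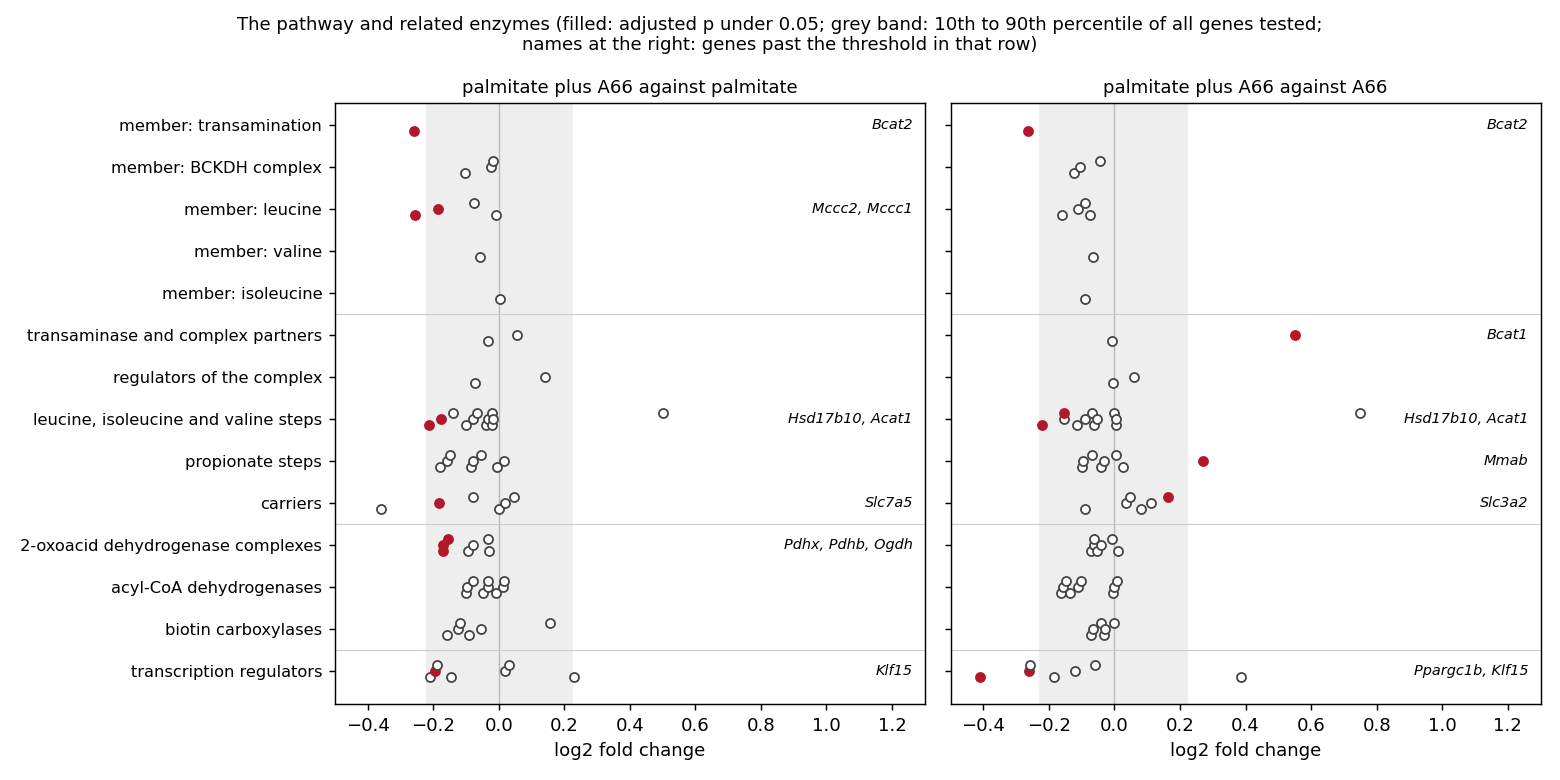
Log2 fold changes from edgeR of palmitate plus A66 against palmitate (left) and against A66 (right), each point a gene, in rows by role for the 10 genes, the 30 others, the 22 related enzymes and the 7 regulators, with filled points for an adjusted p under 0.05 and a grey band from the 10th to the 90th percentile of all genes tested. The band runs from -0.22 to 0.23 (left) and -0.23 to 0.22 (right), and Bcat2 lies below it in both panels.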

How the data were processed

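RNA with a poly(A) tail from 8 cultures was sequenced as paired-end reads from stranded libraries. The authors aligned the reads to GRCm38 with TopHat2 2.0.11 and counted them on genes with HTSeq, and the values used are the raw counts they deposited, without normalization. The annotation and strand setting of the counting are not given in the sources used here. The authors also deposited columns of a DESeq2 comparison (mean, fold change, error, statistic, p and adjusted p), which were not used. Its fold change is signed untreated over A66 by the names of the count columns. Samples were grouped by the treatment in their labels.

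Symbols and lengths were from GENCODE M21, which matched 42462 of 43629 genes. Of the unmatched, 327 had counts. Differences were fitted in R 4.3.3 with edgeR 4.0.16 (TMM, filterByExpr with a minimum count of 10, quasi-likelihood test, Benjamini-Hochberg adjustment over all genes tested, 95% intervals). A66 was compared with untreated cells in their 4 libraries, since the study's methods for these cells describe only A66 and its control, and the other comparisons and the interaction used all 8. CPM are TMM-scaled. The scripts were tested on simulated data.

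The 10 genes, the lists of other genes and the markers were chosen with earlier results of these data known. All 10 genes were described whatever their values. Other genes of branched-chain amino acid use and related enzymes were named where the edgeR adjusted p was under 0.05 in any comparison. Bcat1, Dld, Bckdk, Ppm1k and the 7 regulators were always named. Markers were given mainly as counts and sums over their lists, and not every called marker was named.

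Alternatives were RLE factors, library size scaling, DESeq2 1.42.0, no filter, a minimum of 10 counts per library, the other choice of libraries for each fit, a block for replicate numbers, that block with a length correction (loess span 0.4), and each library left out. Libraries of a group differed by more than sampling noise (mean chi-square of 6.15 to 8.99 per gene). The study's fly data were not analysed here.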

Additional observations from a re-analysis of the deposited data

How the results depend on the processing

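Bcat2 passed the threshold under every alternative run, 16 against palmitate (log2 fold change -0.28 to -0.24) and 18 against A66 (-0.28 to -0.25). Against palmitate, 3 of the 10 genes were called, 1 to 3 with a library left out. The count was 1 without palmitate replicate 2 or palmitate plus A66 replicate 1, and in both cases the gene was Bcat2. The other alternatives kept the counts over the 10 genes, except for fits with a block on the 4 libraries of palmitate plus A66 and A66. Without a block, the fit on those 4 libraries still called 1. Correlations of same-numbered deviations between groups ran from -0.111 to 0.131 over 11144 genes, which cannot settle whether cultures were paired. With the replicate block the counts over the 10 genes stayed at 0, 0, 3, 1 and 0 in the order of the report. In the 4 libraries against A66, chosen after seeing the data, the replicate block called 2 of the 10 (Bcat2 and Mccc2) and 760 of all genes. A crossed block exchanged the replicate numbers of palmitate plus A66. It called 5 of the 10 lower (Bcat2, Bckdha, Ivd, Mccc2 and Acadsb) and 1371 of all genes in either direction.

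Counts over all genes moved more. Without the filter on low counts they were 459 (A66), 396 (palmitate), 652 (both against palmitate), 664 (both against A66) and 91 (interaction), against 261, 171, 410, 398 and 1. With only the libraries compared, 689 were called against A66. The interaction count was 2 with library size scaling, 21 with DESeq2, and 3 with the replicate block, with or without the length correction. With a library left out, the counts ran from 98 to 635, 71 to 245, 147 to 494, 107 to 502 and 0 to 10, in the same order. The cause of these moves was not tested. Of 770 single results for the 10 genes, 4 lost and 5 gained a call. Of 1155 for 15 other genes named in the report, 47 lost and 3 gained a call. No called result changed sign, and 63 of these 1925 results changed sign without a call. With 2 libraries a group, changes smaller than those called may have been missed. At these depths counting error was at most 2.79% for the 10 genes.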
